A study of Mus musculus with 17 samples.

Results

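Transcript levels of 43 genes of fatty acid oxidation and PPAR-linked lipid handling were examined in 17 samples of isolated pancreatic islets from male mice. The genes were chosen by name for their place in the pathway, and all 43 were found by symbol among the 78239 gene identifiers of the first count table and the 73212 of the second. All 43 also passed the filter on low counts in both tables, among 19137 and 20167 tested genes. They comprise the carnitine shuttle, the mitochondrial β-oxidation spiral and its helper enzymes, the electron transfer flavoprotein chain, peroxisomal enzymes, PPAR-linked targets, fatty acid uptake and binding proteins, the PPAR regulators, lipolysis, acyl-CoA synthetases and triglyceride synthesis.

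The first table held wildtype mice and littermates homozygous for the mouse allele that corresponds to the human PAX4 R192H variant (*Pax4* R192H), all on the C57BL6/N background. There were 3 mice of each genotype at 12 weeks of age on a standard chow diet (SCD) and 3 of each at 16 weeks of age after 4 weeks of a high-fat diet (HFD), so diet and age changed together and cannot be told apart. The second table held 2 control and 3 *Pax4* βiKO mice, which were 20 weeks old after 8 weeks of HFD and were all homozygous for a floxed *Pax4* allele. Tamoxifen had been given to both of these groups when aged 7 to 9 weeks, and the HFD from 12 weeks. The *Pax4* βiKO mice also carried *Pdx1*-CreERT2, a tamoxifen-inducible Cre driven by a promoter active in β cells, which the controls lacked, so that the presence of Cre and the loss of *Pax4* cannot be told apart. Nothing further says how the samples of a group were related, so p-values measure the spread among these mice. The comparisons ask how the diet, the knock-in allele and the loss of *Pax4* from adult islets bear on these genes.

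Fatty acids that enter a cell are bound by carrier proteins and activated to acyl-CoA by synthetases, after which they are either stored as triglyceride or burned. Mitochondrial β-oxidation shortens the acyl chain step by step and passes its electrons through the electron transfer flavoprotein to the respiratory chain, while peroxisomes begin the breakdown of very long chains. Many genes of the pathway are targets of the nuclear receptors PPARα, PPARδ and PPARγ, which fatty acids activate, and in β cells the balance of fatty acid oxidation and storage is linked to the control of insulin secretion.

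The bases before the start sites of the 5 genes that were called in at least 1 comparison, and of *Cd36*, are shown because these genes carry the results. The sequences are those of RefSeq on GRCm38.p6, the assembly behind mm10, each with 250 bases before the annotated start and written on the strand of the gene. Capitals mark AGGTCA, the half-site read by PPARs and other nuclear receptors, and GGGCGG, the GC box read by Sp1-type factors, on either strand.
Cpt1a, chr19:3323051-3323300, plus strand: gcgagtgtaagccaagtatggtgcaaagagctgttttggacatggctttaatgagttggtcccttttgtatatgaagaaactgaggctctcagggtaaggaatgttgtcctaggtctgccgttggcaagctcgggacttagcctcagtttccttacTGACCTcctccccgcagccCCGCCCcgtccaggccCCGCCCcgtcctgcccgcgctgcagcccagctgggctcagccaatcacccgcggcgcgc
Slc25a20, chr9:108661886-108662135, plus strand: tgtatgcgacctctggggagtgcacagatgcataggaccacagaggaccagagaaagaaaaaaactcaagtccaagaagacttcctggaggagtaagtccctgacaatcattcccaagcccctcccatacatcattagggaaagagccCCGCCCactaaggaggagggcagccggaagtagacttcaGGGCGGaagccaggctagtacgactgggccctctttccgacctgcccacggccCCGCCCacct
Acadvl, chr11:70015429-70015678, minus strand: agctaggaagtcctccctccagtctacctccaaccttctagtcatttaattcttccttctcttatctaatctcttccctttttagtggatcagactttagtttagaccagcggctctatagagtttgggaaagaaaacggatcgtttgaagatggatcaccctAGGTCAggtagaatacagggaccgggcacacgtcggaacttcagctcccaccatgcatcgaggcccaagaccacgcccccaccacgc
Etfb, chr7:43443822-43444071, plus strand: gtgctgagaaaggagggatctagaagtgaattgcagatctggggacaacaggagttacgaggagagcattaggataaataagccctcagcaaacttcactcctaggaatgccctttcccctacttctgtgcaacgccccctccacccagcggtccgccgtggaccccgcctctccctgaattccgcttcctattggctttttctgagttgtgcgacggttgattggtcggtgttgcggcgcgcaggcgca
Mgll, chr6:88724162-88724411, plus strand: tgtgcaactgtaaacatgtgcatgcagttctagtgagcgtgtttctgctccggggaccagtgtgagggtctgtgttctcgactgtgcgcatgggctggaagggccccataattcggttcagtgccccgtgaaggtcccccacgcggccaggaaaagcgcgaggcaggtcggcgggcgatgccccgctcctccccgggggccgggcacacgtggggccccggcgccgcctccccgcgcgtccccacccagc
Cd36, chr5:17835897-17836146, minus strand: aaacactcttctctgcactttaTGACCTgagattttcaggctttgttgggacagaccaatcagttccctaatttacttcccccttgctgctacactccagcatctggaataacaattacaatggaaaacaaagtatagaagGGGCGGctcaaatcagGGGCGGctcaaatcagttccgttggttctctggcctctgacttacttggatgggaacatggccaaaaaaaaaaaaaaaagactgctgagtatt

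Of the 43 genes, 34 matched the RefSeq promoter table, with 39 windows of 300 bases that reach 50 bases past the start. The direct repeat of 2 copies of AGGTCA with 1 base between them, the form that PPAR and RXR bind, stood in 0 of these 39 windows and in 0.0396% of all 32851 windows. A looser form of the repeat, with any base at the fourth position of each copy, stood in 0 of 39 and in 0.381% of all windows, and TNAAGGTCA, the form of the estrogen-related receptors, in 0 of 39 and 1.28%. The half-site AGGTCA, which is contained in the strict repeat and in the last of these motifs, was found in 8 of 39 windows, or 20.5%, against 16.3% of all windows. GGGCGG was found in 30 of 39, or 76.9%, against 35.7%. Each motif was searched on both strands, and a match describes the letters only. With shares as low as those of the first 3 motifs over all windows, 0 of 39 says little about these genes. The windows of all genes were not limited to genes tested in islets. Within the printed bases, *Cpt1a* and *Cd36* each had 1 half-site and 2 GC boxes, *Slc25a20* had 3 GC boxes, *Acadvl* had 1 half-site, and *Etfb* and *Mgll* had neither.

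Total counts ranged per mouse from 24268157 to 42679645 in the first table, with 28618835 to 31887537 in the other, and the 2 most abundant identifiers took 36.2% to 53.3% of the counts in the former and 8.68% to 11.1% in the latter. Each table was normalized on its own, so levels are not compared between the tables. *Pax4* had 0 counts in all 17 mice, so these counts give no check of the genotype labels on that gene. The paper detected *Pax4* mRNA at a low level in islets by quantitative RT-PCR. It checked the deletion in *Pax4* βiKO islets by PCR of genomic DNA and by quantitative RT-PCR. Marker transcripts of β cells, such as insulin, were abundant in every mouse. The 10 listed genes summed to between 45090 and 110484 CPM, counts per 1000000 of the scaled library total, in the first table. In the second they summed to between 121889 and 138125 CPM. The sum for the 6 markers of α, δ and PP cells was between 5669 and 10154 CPM in the first table and between 14808 and 20369 CPM in the second. Transcripts of other cell types also moved with the groups. The 19 acinar markers summed to between 14910 and 29423 CPM in the SCD-fed wildtype, SCD-fed *Pax4* R192H and HFD-fed wildtype mice, and in the HFD-fed *Pax4* R192H islets the sum was 41171 to 110562 CPM. In HFD-fed *Pax4* R192H mouse 1 the acinar sum of 110562 CPM exceeded the β cell sum of 99293 CPM. In the second table the acinar sum was 119279 CPM in control mouse 1 and 93004 CPM in *Pax4* βiKO mouse 1, against 18929 to 27060 CPM in the other 3, so that 1 library of each group stood apart. *Pax4* βiKO against control called 0 of the 43 genes with the first or the second of these mice left out, and 2 and 9 of all tested genes. The 11 macrophage markers summed to between 110 and 165 CPM in SCD-fed wildtype islets, with 66.6 to 92.9 CPM in the 9 others of that table. The 8 intestinal markers reached 251 CPM in 1 SCD-fed *Pax4* R192H mouse and 150 CPM in 1 HFD-fed *Pax4* R192H mouse, against 40.8 to 74.5 CPM in the other 10. In bulk tissue, fewer cells of a type and less RNA per cell cannot be told apart.

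**Figure D1:**
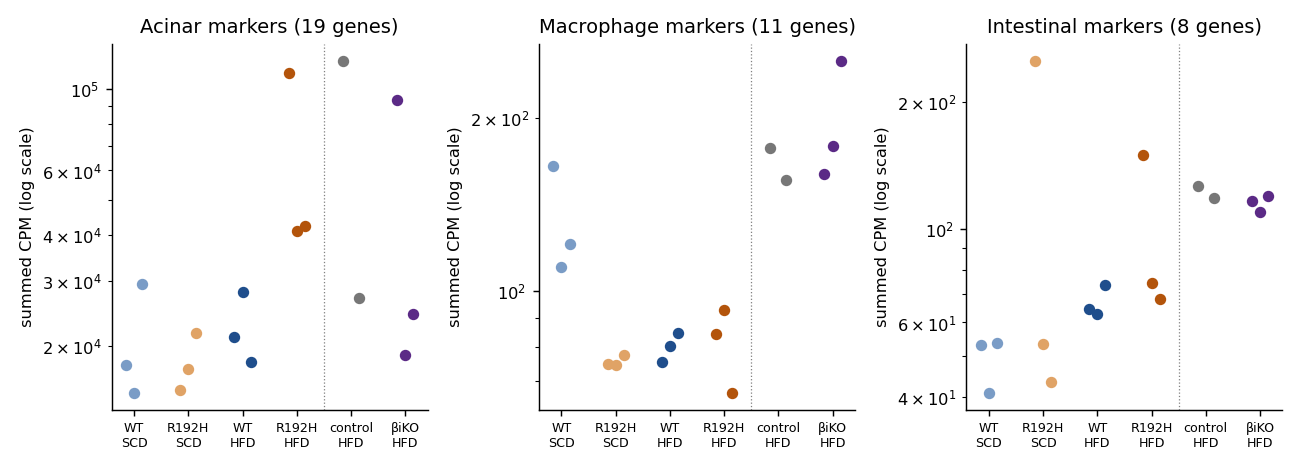
Summed CPM, on a log scale, of the acinar, macrophage and intestinal marker lists in each mouse of the 6 groups, with 1 point per mouse and a dotted line between the separately normalized tables. The acinar sums of the 3 HFD-fed *Pax4* R192H mice lie above those of the 9 other mice of the first table, and the macrophage sums of the 3 SCD-fed wildtype mice do so in the macrophage panel. In the second table the acinar sums of control mouse 1 and *Pax4* βiKO mouse 1 lie above those of the other 3.

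*Hadh* was the most abundant of the 43 genes per kilobase of exon in all 6 groups. This gene encodes the short-chain 3-hydroxyacyl-CoA dehydrogenase of the spiral, an enzyme that is also known for holding insulin secretion in check. Its mean level in wildtype islets was 60.5 CPM per kilobase on SCD and 71.3 on HFD, and in *Pax4* R192H islets 62.5 and 55.2. In the second table it was 103 CPM per kilobase in control and 85.5 in *Pax4* βiKO mice. The order of the first 3 genes was the same in every group, led by *Hadh*, then *Etfb*, then *Acadvl*. In SCD-fed wildtype mice these stood at 15.5 and 13.5 CPM per kilobase, and *Ppara* and *Cpt1b*, the muscle-type carnitine palmitoyltransferase, were lowest at 0.119 and 0.183. The fewest counts of any of the 43 genes in a mouse were 4, for *Angptl4* and *Cpt1b*, so that differences of these and of *Ppara* were known only within wide intervals.

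A gene was called when its adjusted p-value in edgeR's quasi-likelihood test, corrected over all tested genes, was below 0.05 and its log2 fold change was above 0.5 in size. By this rule 5 of the 43 genes were called in at least 1 comparison and 38 in none. Between SCD and HFD, 2 of 43 rose in wildtype mice, where 0.371% of all tested genes were called and 0.204% were called higher. In *Pax4* R192H mice 5 rose and 0 fell, where 15.7% of all tested genes were called and 9.75% were called higher. The 5 of 43 are thus close to the share of all genes called higher there. The genotype comparisons called 0 of the 43 on SCD, where 0% of all genes were called, and 0 on HFD, where 2.28% were. The interaction of genotype and diet called 0, where 0.131% of all genes were called, and *Pax4* βiKO against control called 0, where 0.0893% were. At an unadjusted p below 0.05 the numbers were 2 of 43 on SCD, 5 on HFD, 2 for the interaction and 7 for *Pax4* βiKO, against 3.29%, 15.9%, 11.2% and 12.8% of all tested genes. DESeq2 called 0, 1, 1 and 1 of the 43 in the same order, and 18, 919, 311 and 250 of all genes.

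The middle of the list lay above 0 in every comparison. The median log2 fold change of the 43 genes was 0.10 for the diet in wildtype mice and 0.16 in *Pax4* R192H mice, against 0.011 and -0.058 over all tested genes. For *Pax4* R192H against wildtype it was 0.03 on SCD and 0.11 on HFD, against -0.0038 and -0.014, and for *Pax4* βiKO against control it was 0.07, against 0.011. Fold changes above 0 were measured for 30 of 43 genes, or 69.8%, for the diet in wildtype mice, where 51.1% of all genes lay above 0, and for 29, or 67.4%, in *Pax4* R192H mice, where 46.4% did. The share was 55.8% against 49.3% for the genotype on SCD, 69.8% against 48.6% on HFD, and 65.1% against 51.5% for *Pax4* βiKO. The genotype comparison on HFD and the diet comparison in *Pax4* R192H mice share the same 3 HFD-fed mutant mice, so their values are given side by side and not as separate evidence.

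**Figure D2:**
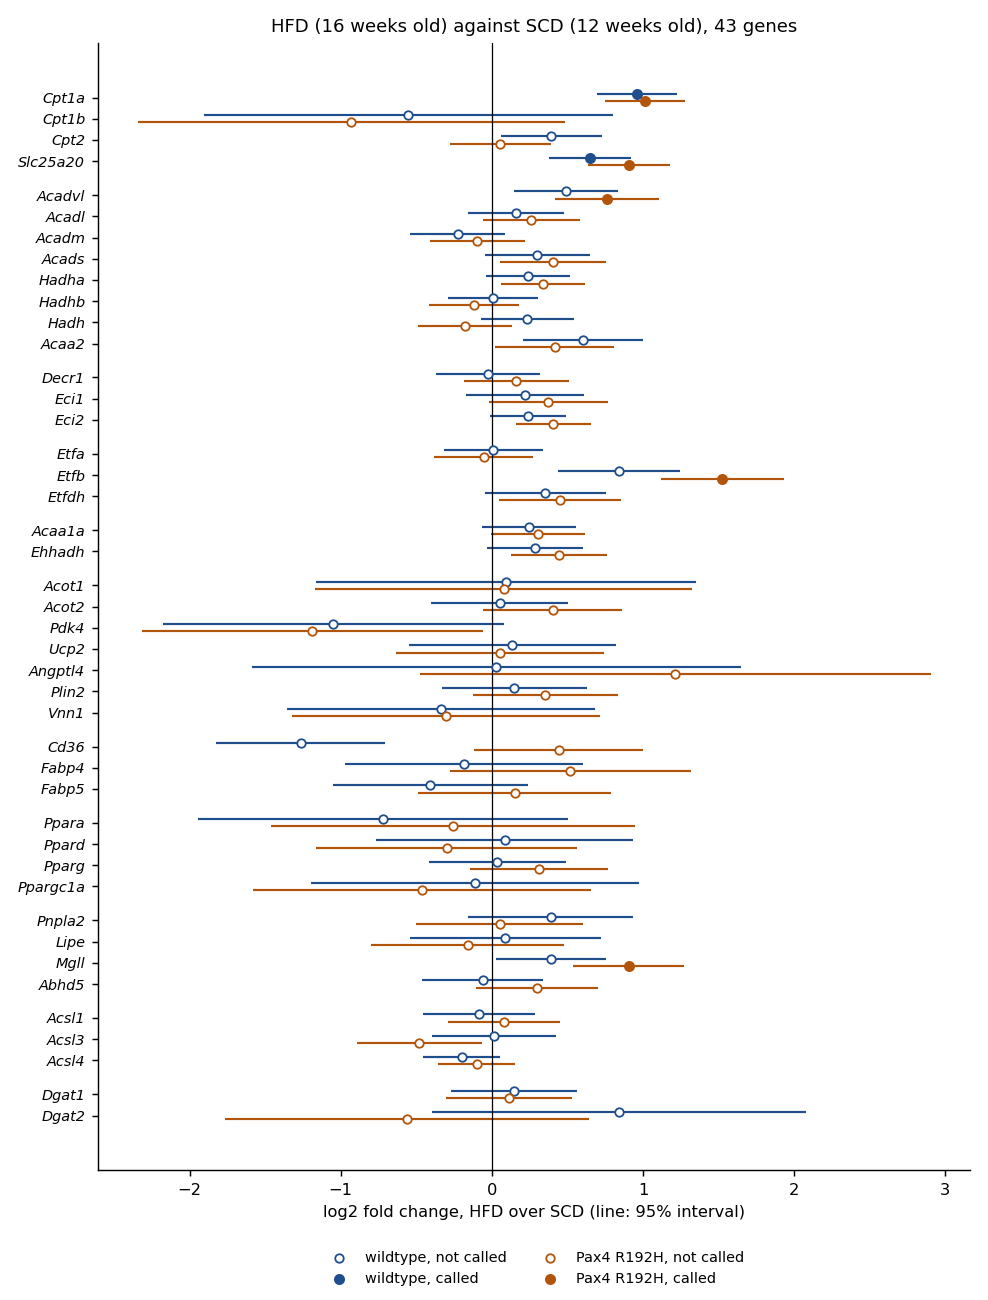
Log2 fold changes of the 43 genes between HFD and SCD in wildtype (blue) and *Pax4* R192H mice (orange), grouped by role from the carnitine shuttle at the top to triglyceride synthesis at the bottom, with lines for the 95% interval and filled points for called genes. *Cpt1a* and *Slc25a20* are filled in both genotypes, *Acadvl*, *Etfb* and *Mgll* only in *Pax4* R192H mice, and the *Cd36* points lie on opposite sides of 0.

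The carnitine shuttle carries long-chain acyl groups into mitochondria: *Cpt1a* encodes the outer-membrane enzyme that makes acylcarnitine and is the main point of control, *Slc25a20* the inner-membrane carrier, and *Cpt2* the enzyme that returns the acyl group to CoA. *Cpt1a* and *Slc25a20* rose with the diet in both genotypes. In wildtype mice *Cpt1a* stood at 14.5, 17.9 and 18.2 CPM on SCD and at 34.5, 32.2 and 31.9 CPM on HFD. In *Pax4* R192H mice it stood at 17.4, 16.7 and 20.1 CPM on SCD and at 35.6, 36.3 and 37.4 CPM on HFD. Every HFD-fed mouse was above every SCD-fed mouse, and the genotypes overlapped on SCD. The increase was 1.95-fold in wildtype mice (log2 fold change 0.96 ± 0.12 SE, edgeR adjusted p = 0.0100) and 2.02-fold in *Pax4* R192H mice (1.01 ± 0.12, adjusted p = 0.000265). The log2 difference between these increases was 0.05, with a 95% interval from -0.31 to 0.42 (edgeR adjusted p = 0.937).

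*Slc25a20* moved in parallel. In wildtype mice its level was 11.02, 9.95 and 10.8 CPM on SCD and 14.5, 17.5 and 17.8 CPM on HFD. In *Pax4* R192H mice it was 10.4, 10.4 and 10 CPM on SCD and 17.9, 20.6 and 19.3 CPM on HFD. The diet groups did not overlap in either genotype, and on HFD the lowest *Pax4* R192H mouse was just above the highest wildtype mouse. The increase was 1.57-fold in wildtype mice (log2 fold change 0.65 ± 0.13 SE, edgeR adjusted p = 0.0465) and 1.87-fold in *Pax4* R192H mice (0.91 ± 0.13, adjusted p = 0.00064). The wildtype call was close to the threshold. It was lost when any 1 of the 3 SCD-fed wildtype mice or HFD-fed wildtype mouse 2 or 3 was left out. In these fits the edgeR adjusted p-values reached 0.241 and the log2 fold changes were between 0.60 and 0.68. The call was also lost with the replicate number as a block (edgeR adjusted p = 0.118), and with the acinar or the endothelial list as a covariate (0.0679 and 0.0872). With the macrophage list as a covariate the wildtype increases of *Cpt1a* and *Slc25a20* were 0.87 and 0.70 on the log2 scale and neither was called, nor was any of the 19137 genes tested. In a fit of only the compared groups their edgeR adjusted p-values were 0.0964 and 0.226, and 1 of the 17592 genes tested was called.

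Of the other shuttle genes, *Cpt2* ranged in wildtype islets from 13.7 to 20.8 CPM on SCD and from 22.3 to 25.8 CPM on HFD, without overlap but without a call (log2 fold change 0.39 ± 0.16 SE, edgeR adjusted p = 0.254). In *Pax4* R192H mice its log2 fold change with the diet was 0.06 ± 0.16. Between genotypes on HFD, *Cpt1a* and *Slc25a20* were measured 0.15 and 0.22 higher on the log2 scale in *Pax4* R192H mice, without overlap (edgeR adjusted p = 0.598 and 0.427). In the floxed *Pax4* mice, *Cpt1a* stood at 75.3 and 56.3 CPM in control mice and 53.3, 54.9 and 54.6 CPM in *Pax4* βiKO mice (log2 fold change -0.28 ± 0.12 SE, adjusted p = 0.394). That value rests on control mouse 1, without which it was -0.052 (edgeR adjusted p = 0.945). *Slc25a20* stood at 26.4 and 25.3 CPM in control and at 27.9, 30.5 and 36.5 CPM in *Pax4* βiKO mice (0.29 ± 0.13, edgeR adjusted p = 0.391). Neither difference passed the test.

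**Figure D3:**
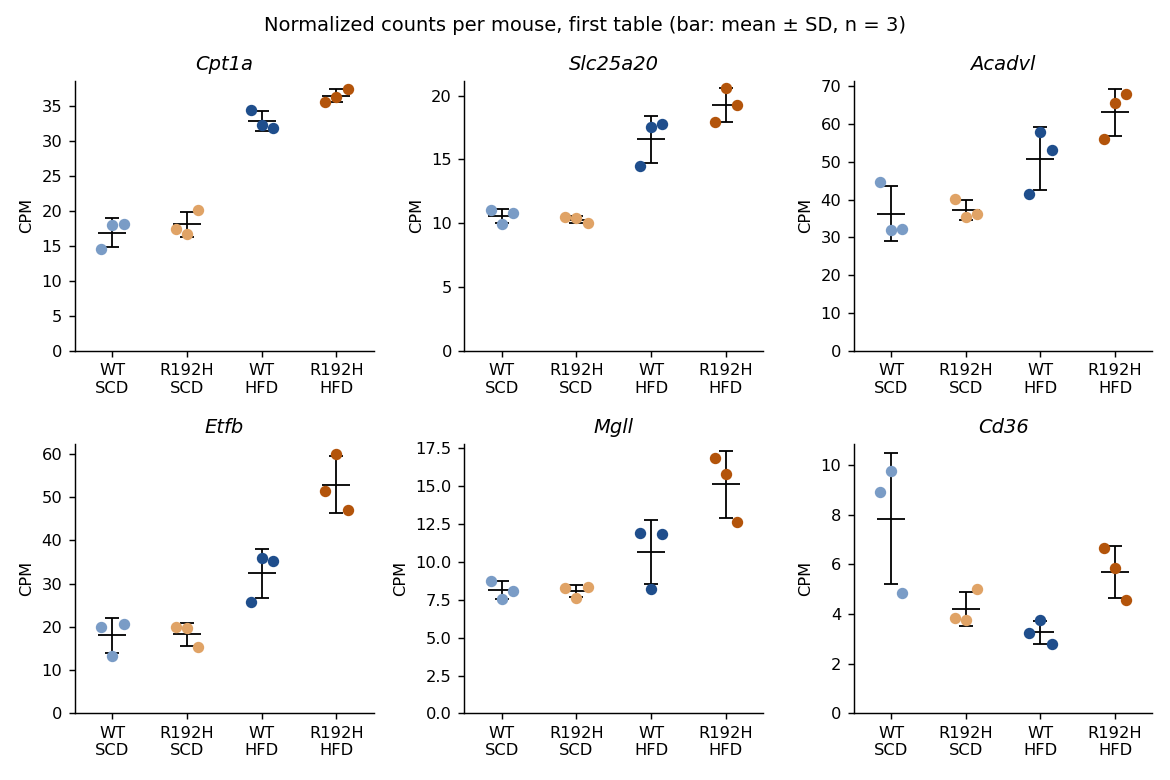
CPM of *Cpt1a*, *Slc25a20*, *Acadvl*, *Etfb*, *Mgll* and *Cd36* in each of the 12 mice of the first table, with 1 point per mouse and bars for mean ± SD of 3 mice. The first 5 genes have their highest mean in HFD-fed *Pax4* R192H mice, while *Cd36* has its highest mean in SCD-fed wildtype mice.

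The spiral itself begins with chain-length-specific acyl-CoA dehydrogenases, and *Acadvl*, which encodes the very-long-chain enzyme, was its 1 called gene among 8. It stood at 40.2, 35.4 and 36.3 CPM in SCD-fed and at 56.1, 65.5 and 67.9 CPM in HFD-fed *Pax4* R192H mice. The groups did not overlap, and the increase was 1.69-fold (log2 fold change 0.76 ± 0.16 SE, edgeR adjusted p = 0.00625). In wildtype mice *Acadvl* stood at 44.7, 31.9 and 32.2 CPM on SCD and at 41.6, 57.9 and 53.0 CPM on HFD. These groups overlapped through SCD-fed mouse 1 and HFD-fed mouse 1, and the difference was not called (0.49 ± 0.16, edgeR adjusted p = 0.172). The log2 difference between genotypes in the diet effect was 0.27, with a 95% interval from -0.21 to 0.75. The annotation places the gene opposite *Dvl2*, which had 112 to 290 counts in the first table.

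The long-, medium- and short-chain dehydrogenases *Acadl*, *Acadm* and *Acads* were not called. *Acads* was higher on HFD without overlap in both genotypes, by 0.30 ± 0.16 (SE) in wildtype and 0.40 ± 0.16 in *Pax4* R192H mice on the log2 scale (edgeR adjusted p = 0.397 and 0.103). With the macrophage list as a covariate these values were -0.27 and 0.25. *Hadha* and *Hadhb*, the subunits of the trifunctional protein for long chains, lie head to head on chromosome 5 with 85 bases between their gene models. Their log2 fold changes with the diet in *Pax4* R192H mice were 0.34 ± 0.13 and -0.12 ± 0.14 (edgeR adjusted p = 0.0874 and 0.581). In wildtype mice they were 0.24 ± 0.13 and 0.01 ± 0.14. *Acaa2*, the thiolase that ends each turn, had log2 fold changes of 0.60 ± 0.18 in wildtype mice and 0.41 ± 0.18 in *Pax4* R192H mice (edgeR adjusted p = 0.151 and 0.136). The former was called without a filter on low counts (adjusted p = 0.034). The latter was 0.63 and called without SCD-fed *Pax4* R192H mouse 1 (adjusted p = 0.0472).

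Of the 8 spiral genes, *Hadh* had the most negative log2 fold change between genotypes on HFD. On HFD it stood at 330, 336 and 399 CPM in wildtype and at 245, 298 and 282 CPM in *Pax4* R192H islets. Among the tamoxifen-treated mice, it stood at 516 and 510 CPM in control and at 386, 436 and 454 CPM in *Pax4* βiKO mice. Mutant and control mice did not overlap in either table, yet neither difference passed the test (log2 fold change -0.37 ± 0.14 SE, edgeR adjusted p = 0.212, and -0.27 ± 0.10, adjusted p = 0.336). The first was -0.12 with the acinar list as a covariate and the second -0.42 with the endothelial list. On SCD the genotypes overlapped, with a log2 fold change of 0.05 and a 95% interval from -0.26 to 0.35. In the same comparison on HFD, 2 of the 10 β cell markers were called lower, the glucose transporter *Slc2a2* and the zinc transporter *Slc30a8*, and 0 were called higher, where 2.28% of all tested genes were called. Of the 10, 4 had log2 fold changes above 0 and 6 below, with a median of -0.39. Without overlap, *Iapp* was higher at 0.50 and 5 of the markers were lower, against 13.0% and 9.89% of all tested genes.

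The helper enzymes *Decr1*, *Eci1* and *Eci2* prepare the double bonds of unsaturated fatty acids for the spiral, and none of the 3 was called. *Eci2* came closest in *Pax4* R192H mice, at 30.7, 30.2 and 30.1 CPM on SCD and 41.0, 41.5 and 38.2 CPM on HFD. Its adjusted p was 0.0282 by edgeR's test, but its log2 fold change of 0.41 ± 0.12 (SE) was under the size limit. *Eci1* was lower in SCD-fed *Pax4* R192H than in wildtype mice without overlap, at 8.67, 9.24 and 7.98 CPM against 10.3, 9.41 and 9.34 CPM (edgeR adjusted p = 1). Such non-overlap was seen for 0 of the 43 genes higher and 2 lower on SCD, *Eci1* and *Acsl4*, against 3.62% and 4.22% of all tested genes.

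The electron transfer flavoprotein takes electrons from the acyl-CoA dehydrogenases. *Etfb*, which encodes its β subunit, had the largest increase among the 43 genes with the diet in *Pax4* R192H mice. It stood at 19.9, 19.8 and 15.3 CPM on SCD and at 51.4, 60.0 and 47.1 CPM on HFD, a 2.88-fold increase (log2 fold change 1.53 ± 0.19 SE, edgeR adjusted p = 0.00032). In wildtype mice it stood at 20.0, 13.4 and 20.6 CPM on SCD and at 25.8, 36.0 and 35.3 CPM on HFD (0.84 ± 0.19, edgeR adjusted p = 0.0732). Diet groups were separate in either genotype, and on HFD every *Pax4* R192H mouse was above every wildtype mouse. That genotype difference on HFD was 1.63-fold (log2 fold change 0.71 ± 0.19 SE, edgeR adjusted p = 0.0654), and the interaction was 0.68, with a 95% interval from 0.11 to 1.25 (adjusted p = 0.342). DESeq2 called *Etfb* for the genotype on HFD (adjusted p = 0.0118) and for the diet in wildtype mice (0.00346), as did edgeR's test without a filter on low counts (adjusted p = 0.00109 and 6.88e-05). Without HFD-fed wildtype mouse 1, edgeR's test called the wildtype diet effect (0.98, adjusted p = 0.0431). After 8 weeks of HFD, *Etfb* stood at 66.6 and 68.8 CPM in control and at 70.8, 66.0 and 74.0 CPM in *Pax4* βiKO mice, which overlapped. The log2 fold change there was 0.05, with a 95% interval from -0.14 to 0.25.

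The diet effects of its partners were smaller. *Etfa*, the α subunit, had log2 fold changes of 0.01 ± 0.15 (SE) and -0.05 ± 0.15 with the diet in wildtype and *Pax4* R192H mice, with 95% intervals from -0.32 to 0.34 and from -0.38 to 0.27. The upper bound in *Pax4* R192H mice lies under the lower bound of 1.12 for *Etfb*. *Etfdh*, which hands the electrons to ubiquinone, lay between at 0.35 ± 0.19 and 0.45 ± 0.19 (edgeR adjusted p = 0.39 and 0.113). In the second table *Etfa* stood at 31.4 and 31.4 CPM in control and 27.7, 25.5 and 24.4 CPM in *Pax4* βiKO mice, while *Etfdh* stood at 66.1 and 62.6 CPM against 75.2, 76.7 and 72.9 CPM. The 2 genes lay on opposite sides without overlap, and neither was called (edgeR adjusted p = 0.306 and 0.311). Of the transcripts that overlap *Etfb* on its own strand, *Gm45233* had 0 to 9 counts in the first table.

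The peroxisomal enzymes *Acaa1a*, a thiolase, and *Ehhadh*, a bifunctional enzyme, were not called. In *Pax4* R192H mice both were higher on HFD than on SCD without overlap, by 0.31 and 0.45 on the log2 scale. Non-overlap was common in that comparison, where 21.3% of all tested genes were higher without overlap and 20.6% lower. For the 43 genes it was 12 of 43 higher and 0 lower. In wildtype mice it was 7 higher and 1 lower, against 8.47% and 9.46% of all genes. In both genotypes at once, 4 of 43 genes were higher on HFD without overlap (*Acads*, *Cpt1a*, *Etfb* and *Slc25a20*), or 9.30%, against 4.74% of all genes, and 0 were lower in both, against 4.42%.

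Among the thioesterases and other PPAR-linked targets, 0 of 7 were called in any comparison. *Pdk4*, whose product turns off pyruvate dehydrogenase when fatty acids are burned, is a standard PPAR target. It stood at 4.18, 14.1 and 5.19 CPM in SCD-fed and 6.69, 2.42 and 2.21 CPM in HFD-fed wildtype mice, and at 12.2, 5.74 and 15.0 CPM against 2.97, 5.37 and 6.08 CPM in *Pax4* R192H mice. The spread within groups was wide, with log2 fold changes of -1.05 ± 0.52 (SE) and -1.19 ± 0.52 (edgeR adjusted p = 0.363 and 0.135), and neither difference passed the test. Without a filter on low counts both were called (edgeR adjusted p = 0.00072 and 1.3e-05), and a fit of only the compared groups called the difference in *Pax4* R192H mice (edgeR adjusted p = 0.0357). With a marker list as a covariate neither was called, and the log2 fold change was -0.35 in wildtype mice with the endothelial list and -0.27 in *Pax4* R192H mice with the acinar list. *Plin2*, the coat protein of lipid droplets, had log2 fold changes with the diet of 0.15 ± 0.22 and 0.35 ± 0.22 (edgeR adjusted p = 0.789 and 0.295). With the macrophage list as a covariate the values for *Plin2* were 0.93 and 0.55, and neither was called. *Angptl4*, a secreted inhibitor of lipoprotein lipase, was at most 3.01 CPM in any mouse, and its diet effect in *Pax4* R192H mice had a 95% interval from -0.48 to 2.90.

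*Ucp2*, the inner-membrane uncoupling protein of islets, had diet effects of 0.13 ± 0.32 (SE) and 0.06 ± 0.32 on the log2 scale in wildtype and *Pax4* R192H mice. Among the tamoxifen-treated mice, it stood at 61.9 and 56.3 CPM in control and at 50.3, 52.0 and 44.0 CPM in *Pax4* βiKO mice (log2 fold change -0.28 ± 0.10, edgeR adjusted p = 0.315). *Acot1* and *Acot2*, the cytosolic and mitochondrial acyl-CoA thioesterases, lie side by side on chromosome 12, and their transcripts are 94.3% identical over 1330 aligned bases. The division of reads between them is therefore uncertain. With the diet in *Pax4* R192H mice *Acot2* had a log2 fold change of 0.40 ± 0.21 (SE, edgeR adjusted p = 0.209), which was 0.71 and called without SCD-fed mouse 2 (0.0445). *Acot1* was at most 1.83 CPM and *Acot2* between 3.17 and 7.66 CPM over all 17 mice. *Vnn1*, a pantetheinase, stood at 2.12 and 1.72 CPM in control and at 2.36, 2.27 and 3.40 CPM in *Pax4* βiKO mice, without overlap and without a call.

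Of the genes for fatty acid uptake, *Cd36*, a membrane receptor for long-chain fatty acids, stood at 8.93, 9.76 and 4.85 CPM in SCD-fed and at 3.23, 3.75 and 2.81 CPM in HFD-fed wildtype mice. In *Pax4* R192H mice it stood at 3.84, 3.76 and 5.001 CPM on SCD and at 6.66, 5.87 and 4.57 CPM on HFD. The wildtype diet groups did not overlap, with HFD lower, and on HFD every *Pax4* R192H mouse was above every wildtype mouse. The log2 fold change with the diet was -1.27 ± 0.26 (SE) in wildtype mice and 0.44 ± 0.26 in *Pax4* R192H mice (edgeR adjusted p = 0.0578 and 0.256). The interaction was 1.71, with a 95% interval from 0.92 to 2.50, and did not pass the test (edgeR adjusted p = 0.0818). DESeq2 called the interaction (adjusted p = 0.00409) and the wildtype diet effect (0.00147), as did edgeR's test without a filter on low counts (adjusted p = 0.000395 and 0.000147). Without SCD-fed wildtype mouse 3, edgeR's test called the wildtype diet effect (-1.50, adjusted p = 0.0402).

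The genotype difference in *Cd36* was -0.90 ± 0.26 (SE) on SCD and 0.80 ± 0.26 on HFD on the log2 scale (edgeR adjusted p = 1 and 0.129). After 8 weeks of HFD, *Cd36* stood at 11.5 and 11.8 CPM in control and at 18.1, 23.9 and 22.6 CPM in *Pax4* βiKO mice. Every *Pax4* βiKO mouse was above both controls, and the 1.85-fold difference was not called by edgeR's test (log2 fold change 0.89 ± 0.14, adjusted p = 0.113) but was by DESeq2 (adjusted p = 6.92e-05) and by edgeR's test without a filter on low counts (adjusted p = 2.8e-07). Macrophages, endothelial cells and adipocytes also express *Cd36*, and the macrophage list was highest in the SCD-fed wildtype mice and in the second table ranged from 156 to 177 CPM in control and from 160 to 251 CPM in *Pax4* βiKO mice. With the macrophage list as a covariate, the log2 fold change of *Cd36* was -0.29 for the diet in wildtype mice, 0.98 for the interaction, -0.16 for the genotype on SCD, 0.82 for the genotype on HFD and 0.79 for *Pax4* βiKO. The endothelial list summed to between 220 and 289 CPM in the first table, with overlap among the groups. In the floxed *Pax4* mice, it was 354 and 357 CPM in control and between 375 and 446 CPM in *Pax4* βiKO mice. The adipocyte list was at most 1.40 CPM in any mouse, with *Adig* at 0 counts in all mice and *Adipoq* at 0 in the whole first table.

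**Figure D4:**
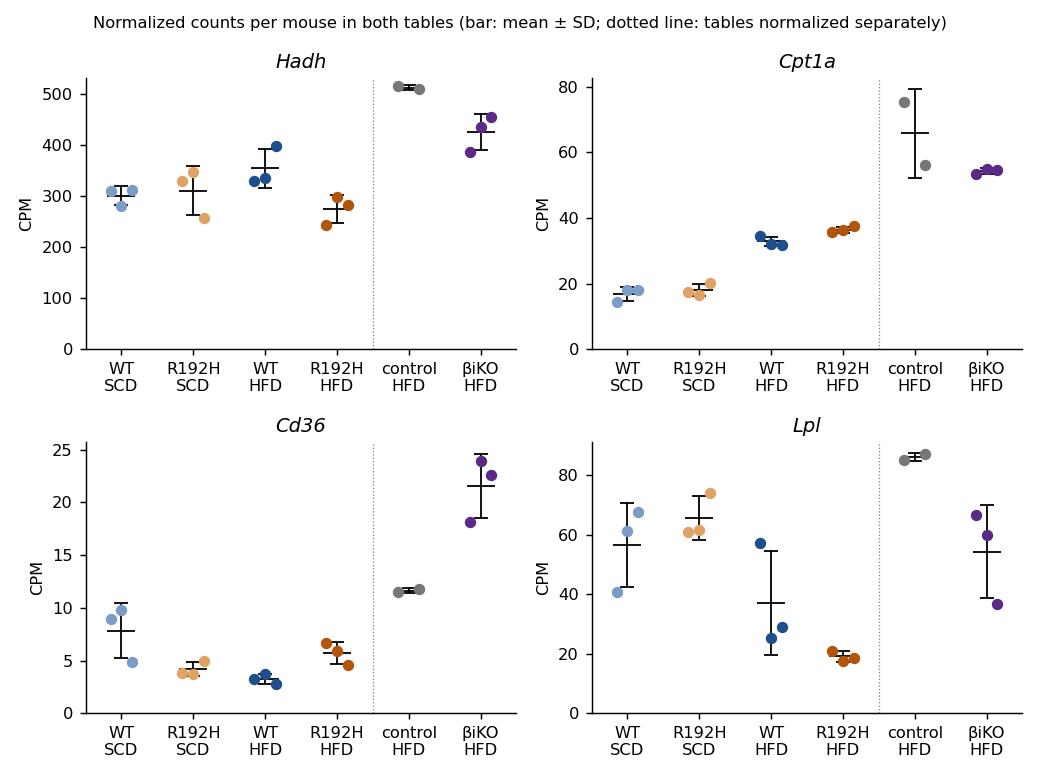
CPM of *Hadh*, *Cpt1a*, *Cd36* and *Lpl* in each of the 17 mice, with 1 point per mouse, bars for mean ± SD and a dotted line between the separately normalized tables. On HFD *Hadh* and *Lpl* are lower and *Cd36* is higher in both mutants than in their own controls, without overlap and without a call in edgeR's filtered fit, while *Cpt1a* lies above its control in *Pax4* R192H and below it in *Pax4* βiKO mice.

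The cytosolic carriers *Fabp4* and *Fabp5* were not called. *Fabp5* stood at 1.3597, 2.08 and 1.61 CPM in wildtype islets on HFD and at 3.08, 3.15 and 1.88 CPM in *Pax4* R192H islets on that diet (log2 fold change 0.68 ± 0.30 SE, edgeR adjusted p = 0.283), and the log2 fold change was 0.24 with the acinar list as a covariate. In the second table it stood at 5.80 and 3.68 CPM in control and at 7.00, 6.47 and 8.52 CPM in *Pax4* βiKO mice (0.63 ± 0.24, edgeR adjusted p = 0.338), with log2 fold changes of 0.99 without control mouse 1 and 0.34 without control mouse 2. *Pax4* R192H and wildtype mice overlapped, and *Pax4* βiKO and control mice did not. *Fabp4*, better known from adipocytes and capillaries, ranged from 3.58 to 11.4 CPM across the R192H study groups and from 12.2 to 28.9 CPM across the conditional ones, with overlap in every comparison.

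None of the PPAR regulators was called. *Pparg* was the most abundant receptor per kilobase in SCD-fed wildtype mice, at 1.90 CPM per kilobase, against 0.352 for *Ppard* and 0.119 for *Ppara*. Its log2 fold changes with the diet were 0.04 ± 0.21 (SE) in wildtype and 0.31 ± 0.21 in *Pax4* R192H mice (edgeR adjusted p = 0.957 and 0.33). *Ppara* and *Ppard* lay at -0.26 ± 0.56 and -0.30 ± 0.40 in *Pax4* R192H mice, where the coactivator *Ppargc1a* was also low, between 0.420 and 1.72 CPM over both diets. After 8 weeks of HFD, *Ppard* stood at 3.75 and 4.34 CPM in control and at 3.26, 2.36 and 1.90 CPM in *Pax4* βiKO mice (log2 fold change -0.70 ± 0.27, edgeR adjusted p = 0.352), and *Pparg* at 9.85 and 8.88 CPM against 10.1, 11.8 and 10.9 CPM (0.22 ± 0.14, adjusted p = 0.542). Both were free of overlap, in opposite directions.

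Stored triglyceride is broken down in turn by *Pnpla2*, with its coactivator *Abhd5*, by *Lipe* and by *Mgll*, the monoglyceride lipase, and *Mgll* alone was called. It stood at 8.26, 7.61 and 8.32 CPM in SCD-fed and at 16.9, 15.8 and 12.6 CPM in HFD-fed *Pax4* R192H mice, without overlap. The increase was 1.87-fold (log2 fold change 0.91 ± 0.17 SE, edgeR adjusted p = 0.00352). In wildtype mice it stood at 8.76, 7.56 and 8.06 CPM on SCD and at 11.9, 8.19 and 11.8 CPM on HFD, where HFD-fed mouse 2 overlapped the SCD group (0.39 ± 0.17, edgeR adjusted p = 0.292). The log2 difference between genotypes in the diet effect was 0.51, with a 95% interval from -0.00048 to 1.03 (edgeR adjusted p = 0.445). On HFD the *Pax4* R192H mice were 1.42-fold higher without overlap, which was not called (adjusted p = 0.141). In the floxed *Pax4* mice, *Mgll* stood at 13.9 and 13.0 CPM in control and at 15.1, 15.2 and 15.5 CPM in *Pax4* βiKO mice (0.18 ± 0.11, edgeR adjusted p = 0.508).

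*Pnpla2*, *Lipe* and *Abhd5* had diet effects between -0.16 and 0.39 on the log2 scale in both genotypes, and none was called. *Pnpla2* was lower in *Pax4* βiKO than in control mice without overlap, at 6.90, 7.71 and 7.82 CPM against 8.96 and 8.49 CPM. The acyl-CoA synthetases *Acsl1*, *Acsl3* and *Acsl4* activate long-chain fatty acids, and 0 of 3 was called. *Acsl3* stood at 8.50, 10.5 and 11.3 CPM in HFD-fed wildtype and at 6.69, 8.06 and 8.14 CPM in HFD-fed *Pax4* R192H mice, lower without overlap (log2 fold change -0.41 ± 0.19 SE, edgeR adjusted p = 0.325). With the diet in *Pax4* R192H mice it was -0.48 ± 0.19 (edgeR adjusted p = 0.103), and -0.65 and called without SCD-fed mouse 3 (0.0383). The acinar list as a covariate took both values of *Acsl3* to -0.17 and -0.18. It shares its strand with the overlapping gene *Utp14b*, which had 94 to 272 counts in the first table. *Acsl4* was lower without overlap in SCD-fed *Pax4* R192H than in wildtype mice, at 32.1, 29.9 and 31.4 CPM against 34.0, 34.4 and 32.8 CPM.

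*Dgat1* and *Dgat2* catalyse the last step of triglyceride synthesis, and neither was called. *Dgat2* had the largest log2 fold change of the 43 genes between genotypes on SCD, 1.52 ± 0.57 (SE), which rested on 1 mouse (edgeR adjusted p = 1). SCD-fed *Pax4* R192H mouse 1 stood at 4.19 CPM, against 0.895 and 0.763 CPM in the other two and 0.505 to 0.939 CPM in wildtype mice. The same library had the highest intestinal marker sum, with 4972 counts of *Apoa4*, 739 of *Fabp1* and 1624 of *Fabp2*, lipid-handling genes of the gut that had 0 to 5 counts in the 5 other SCD-fed mice. HFD-fed *Pax4* R192H mouse 1 had 1737, 139 and 107 counts of these genes, and mouse 2 of that group had 63, 15 and 6. Whether these transcripts share a source with *Dgat2* was not tested.

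The calls in *Pax4* R192H mice were read beside their acinar content. All 5 called genes of the diet comparison kept their direction with the acinar list as a covariate, at log2 fold changes of 0.93 for *Cpt1a*, 1.01 for *Slc25a20*, 1.00 for *Acadvl*, 1.48 for *Etfb* and 0.85 for *Mgll*. None of them remained past the threshold, with edgeR adjusted p-values between 0.0845 and 0.227, and 71 of all tested genes were called in that fit against 2996 without the covariate. The summed level of the β cell list differed between the diets too, from between 50619 and 52741 CPM to between 99293 and 110484 CPM in *Pax4* R192H mice and from between 45090 and 59369 CPM to between 65469 and 93847 CPM in wildtype mice. Its genes did not move one way in *Pax4* R192H mice, where *Ins1*, *Ins2* and *Iapp* were called higher and *Slc2a2* and *Slc30a8* lower among the 10. The duct list was at 127 to 135 CPM in HFD-fed *Pax4* R192H islets, with 79.4 to 110 CPM in the rest of that table. The part of the β cell and duct content in the 5 increases was not tested.

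Marker lists as covariates also moved some differences that were not called, by over 1.5 times. With the acinar list the diet effect in *Pax4* R192H mice was 0.61 for *Abhd5*, 0.60 for *Acaa1a*, 0.83 for *Acaa2*, 0.67 for *Acot2*, 0.26 for *Ehhadh* and 0.57 for *Plin2*. It was -0.99 for *Ppara* and -1.13 for *Ppard*. In that fit the interaction of *Acadvl* was 0.47 and the genotype effect of *Cpt1a* on HFD was 0.084. With the macrophage list the diet effect in wildtype mice was 0.94 for *Acaa2*, 0.086 for *Cpt2*, 0.61 for *Etfdh*, 0.42 for *Hadha*, 0.70 for *Mgll* and 0.52 for *Ucp2*. The same list gave 0.25 for *Acads* and 0.69 for *Cd36* with the diet in *Pax4* R192H mice, 0.28 for the interaction of *Mgll*, 1.00 for the genotype effect of *Dgat2* on SCD, and -0.46 and 0.15 for *Ppard* and *Slc25a20* in *Pax4* βiKO mice. With the endothelial list the *Pax4* βiKO values were -0.17 for *Etfa*, -0.29 for *Ppard*, 0.097 for *Pparg* and 0.097 for *Slc25a20*. None of these was called in those fits.

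**Figure D5:**
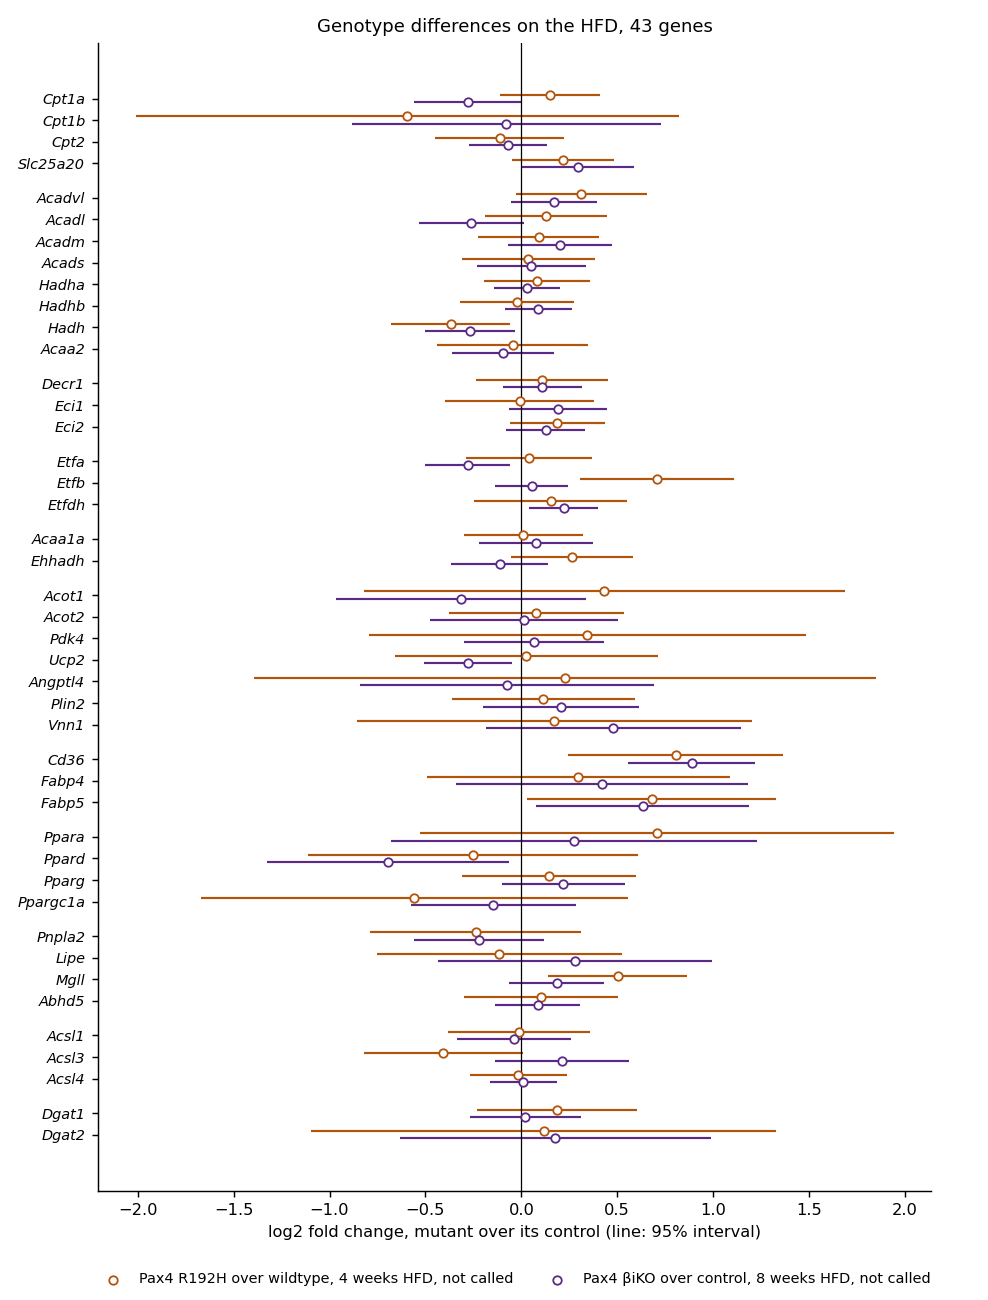
Log2 fold changes of the 43 genes in HFD-fed mutants over their own controls, for *Pax4* R192H over wildtype after 4 weeks of HFD (orange) and *Pax4* βiKO over control after 8 weeks (purple), grouped by role, with lines for the 95% interval. No point is filled because 0 of 43 genes were called in either comparison, and *Cd36* and *Fabp5* lie above 0 while *Hadh* lies below 0 in both.

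The 2 mutants could be set side by side because their tables share no mice. On HFD, 6 of 43 genes were higher and 2 lower without overlap in *Pax4* R192H mice, against 13.0% and 9.89% of all tested genes. In *Pax4* βiKO mice, 9 were higher and 8 lower without overlap, against 15.9% and 16.7%, in a comparison of 3 mice with 2. *Cd36*, *Mgll* and *Slc25a20* were higher in both, or 6.98% of the 43, against 5.09% of the 18590 genes tested in both tables. *Hadh* was lower in both, or 2.33%, against 3.69%, and *Cpt1a* was higher in the first and lower in the second, or 2.33%, against 0.769%. Without control mouse 1 the log2 fold change of *Cpt1a* in *Pax4* βiKO mice was -0.052. These shares lie near those of all genes, and none of the genes was called in either comparison.

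A second list of 75 other genes of the pathway, such as ketogenic enzymes, fatty acid transporters and lipid droplet proteins, was read in the same fits, and 61 of them were tested in each table. None was called in 5 of the 6 comparisons, and with the diet in *Pax4* R192H mice 6 were higher and 3 lower, where 15.7% of all tested genes were called. With 1 mouse left out at a time, 1 to 6 of the list were called there, with 1 called without HFD-fed *Pax4* R192H mouse 3 and 3 without mouse 2, while 1706 to 2248 of all genes were called in these fits. Of the 6 called higher, the 2 with the largest log2 fold change were *Acot8*, a peroxisomal thioesterase, at 0.77 ± 0.24 (SE) on the log2 scale, and *Slc27a4*, a fatty acid transporter, at 0.75 ± 0.21 (edgeR adjusted p = 0.0393 and 0.0264). The 3 called lower were *Acaca*, *Abcd2* and *Lpl*. Of these *Acaca*, which makes the malonyl-CoA that inhibits Cpt1, stood at 39.8, 35.8 and 43.7 CPM on SCD and 29.1, 25.1 and 23.4 CPM on HFD (-0.62 ± 0.15, edgeR adjusted p = 0.0114). *Mlycd*, which breaks malonyl-CoA down and was picked for mention after its values were seen, was called higher in the same comparison, at 17.8, 19.2 and 16.2 CPM on SCD and 21.2, 28.3 and 28.4 CPM on HFD (0.55 ± 0.16, edgeR adjusted p = 0.0288). With 1 mouse left out, the edgeR adjusted p-values reached 0.167 for *Acot8*, 0.0987 for *Slc27a4*, 0.0593 for *Acaca* and 0.116 for *Mlycd*, and each of these 4 calls was lost without HFD-fed *Pax4* R192H mouse 2 and without mouse 3. Over all the mice left out in turn, their log2 fold changes were 0.61 to 1.01 for *Acot8*, 0.56 to 1.16 for *Slc27a4*, -0.71 to -0.55 for *Acaca* and 0.48 to 0.68 for *Mlycd*.

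*Lpl*, which encodes the lipase that frees fatty acids from circulating lipoproteins, had the largest decrease of the 3 genes called lower. It stood at 60.8, 61.7 and 74.0 CPM in SCD-fed and at 21.1, 17.6 and 18.7 CPM in HFD-fed *Pax4* R192H mice, a 3.42-fold decrease (log2 fold change -1.77 ± 0.27 SE, edgeR adjusted p = 0.00108). In wildtype mice it stood at 40.7, 61.3 and 67.6 CPM on SCD and at 57.3, 25.2 and 28.9 CPM on HFD, which overlapped (-0.61 ± 0.26, edgeR adjusted p = 0.295). Among the tamoxifen-treated mice, it stood at 85.1 and 87.1 CPM in control and at 66.5, 59.9 and 36.6 CPM in *Pax4* βiKO mice, without overlap (-0.66 ± 0.22, adjusted p = 0.293). The genotype difference on HFD in the first table was -0.96 ± 0.27 (edgeR adjusted p = 0.0795), also without overlap, and the interaction was -1.17 with a 95% interval from -1.97 to -0.36 (adjusted p = 0.243). Without HFD-fed wildtype mouse 1 these values were -0.50 (edgeR adjusted p = 0.285) and -0.71, and the wildtype diet effect was -1.06 and was called (0.041). Without HFD-fed wildtype mouse 2 the genotype difference was -1.17 and was called (edgeR adjusted p = 0.0371). Without a filter on low counts, edgeR's test called *Lpl* for the genotype on HFD (adjusted p = 7.7e-07), the interaction (6.8e-05), the diet in wildtype mice (0.0119) and *Pax4* βiKO (1.2e-07), and DESeq2 called it for the genotype on HFD (adjusted p = 0.00784). With the endothelial and the macrophage list as a covariate the *Pax4* βiKO value was -0.35 and -0.42. With the acinar list as a covariate, 0 of the 61 genes and 71 of all tested genes were called for the diet in *Pax4* R192H mice, at log2 fold changes of -2.10 for *Lpl*, -0.83 for *Acaca*, 1.01 for *Acot8*, 0.86 for *Slc27a4* and 0.98 for *Mlycd*.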

How the data were processed

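RNA from isolated islets was sequenced from stranded total RNA libraries. The authors aligned reads to mm10 with STAR 2.7.1 and estimated abundance with RSEM 1.3.3. They summed it to genes with tximport and deposited 2 tables of expected counts. Their own test was DESeq2 with default parameters, which was run here as an alternative to edgeR. The annotation release and the strand setting of the counting are not given in the sources used here. Of the identifiers, 65.8% and 66.7% matched GENCODE M21.

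Expected counts were rounded to whole numbers and each table was fitted alone in R 4.3.3 with edgeR 4.0.16 (filterByExpr, minimum count 10, TMM scaling, quasi-likelihood test), with 4 groups in the first table and 2 in the second. Benjamini-Hochberg adjustment ran over all tested genes. Genes were called at an adjusted p below 0.05 and a log2 fold change above 0.5 in size. CPM values use TMM-scaled library sizes, and levels per kilobase use exon length. A floor of 3 counts equals 7.03e-06% to 1.24e-05% of a library, which covers counting error only.

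Alternatives were RLE size factors, the DESeq2 1.42.0 test, other filters, the replicate number as a block, only the compared groups, the 2 highest genes left out, marker lists as covariates and each mouse left out. The macrophage covariate was chosen after seeing the data. Genes not called were named for the largest or smallest change of their role, for groups without overlap, or as defining genes. The 43 genes and all lists were chosen with earlier results of these data known. The result of 1 related gene is not reported here.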

Additional observations from a re-analysis of the deposited data

How the results depend on the processing

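No called value changed sign under any alternative that was run. Without a filter on low counts, the numbers called among the 43 genes were 1 for the genotype on HFD, 1 for the interaction, 6 for the diet in wildtype mice and 1 for *Pax4* βiKO, where 1279, 708, 924 and 697 of all tested genes were called, and among the related genes 2 for the genotype on SCD, 3 on HFD, 1 for the interaction, 2 for the diet in wildtype mice and 1 for *Pax4* βiKO. With at least 10 counts in every mouse, 1 of the 43 and 639 of all genes were called for the genotype on HFD. DESeq2 called 1 of the 43 for the genotype on HFD, 1 for the interaction, 4 for the diet in wildtype mice and 1 for *Pax4* βiKO, where it called 919, 311, 544 and 250 of all genes, and 1, 3 and 2 related genes for the genotype on SCD, the genotype on HFD and the diet in wildtype mice. The acinar covariate gave 1 of the 43 for the diet in wildtype mice and 0 in *Pax4* R192H mice, with 39 and 71 of all genes, and 0 related genes were called in the latter. The endothelial covariate gave 1 for the genotype on HFD and 1 for the diet in wildtype mice, with 603 and 67 of all genes. The macrophage covariate, chosen after seeing the data, called 0 of all 19137 genes for the diet in wildtype mice, so that 0 of the 43 says nothing of the members, and gave 2 related genes in *Pax4* R192H mice, with 2156 of all genes. A fit of only the compared groups gave 0 for the diet in wildtype mice, with 1 of 17592 genes. The cause of these shifts was not tested.

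With 1 mouse left out at a time, 1 to 3 of the 43 genes were called for the diet in wildtype mice, 5 to 6 in *Pax4* R192H mice and 0 to 0 in the other 4 comparisons. Over all genes the calls were then 5 to 125, 1706 to 2248, 93 to 498 for the genotype on HFD, 0 to 101 for the interaction, 2 to 28 for *Pax4* βiKO and 0 to 0 on SCD. The related genes gave 0 to 1, 1 to 6, 0 to 1 on HFD between genotypes, and 0 to 0 elsewhere. Where 1 control was left, its spread was assumed to equal that of the other mice. Same-numbered mice correlated between -0.296 and 0.193 in their deviations and share only a number. With the replicate number as a block, 1 of the 43 genes was called for the diet in wildtype mice.

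Over all tested genes the main tests called 437 for the genotype on HFD, 25 for the interaction, 71 for the diet in wildtype mice, 18 for *Pax4* βiKO and 0 for the genotype on SCD. Beside the counts above, the block gave 147, 0, 22, 88 and 0 in this order, the acinar covariate 0 for the first 2 and 13 for *Pax4* βiKO, and the macrophage covariate 306 and 0 for the first 2. With at least 10 counts in every mouse the interaction gave 80 and the diet in wildtype mice 115. The endothelial covariate gave 53 for the interaction and 7 each for *Pax4* βiKO and the genotype on SCD. For the genotype on SCD, 261 were called without a filter and 18 by DESeq2. Genes with few counts, such as *Ppara*, *Cpt1b* and *Angptl4*, are limited by depth.

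The sign of some small log2 fold changes that were not called did change. With the acinar covariate the diet effect in *Pax4* R192H mice was -0.13 for *Ucp2*, 0.19 for *Etfa*, 0.070 for *Hadhb* and 0.17 for *Lipe*, and the interaction of *Cpt1a* was -0.016. With the endothelial covariate the interaction of *Cpt1a* was -0.011 and the diet effect in wildtype mice -0.086 for *Pparg*. With the macrophage covariate the diet effect in wildtype mice was 0.15 for *Abhd5*, -0.27 for *Acads*, -0.34 for *Etfa*, -0.23 for *Pnpla2* and -0.20 for *Pparg*. The diet effect in *Pax4* R192H mice was then -0.021 for *Cpt2*, -0.13 for *Pnpla2* and 0.10 for *Ppara*, and the genotype effect on SCD was -0.031 for *Hadh*. For the diet in wildtype mice, *Etfa* and *Hadhb* gave -0.025 and -0.026 with at least 10 counts in every mouse and -0.00365 and -0.000940 under the replicate block, and *Hadhb* gave -0.000633 in a fit of only the compared groups. With 1 mouse left out, the diet effect in wildtype mice ranged from -0.18 to 0.14 for *Abhd5*, -0.10 to 0.12 for *Etfa*, -0.078 to 0.10 for *Hadhb*, -0.10 to 0.42 for *Lipe*, -0.12 to 0.21 for *Pparg* and -0.36 to 0.45 for *Ucp2*. For the diet in *Pax4* R192H mice it ranged from -0.020 to 0.17 for *Cpt2*, -0.14 to 0.047 for *Etfa*, -0.10 to 0.20 for *Pnpla2*, -0.47 to 0.12 for *Ppara* and -0.11 to 0.27 for *Ucp2*, and the genotype effect of *Hadh* on SCD from -0.037 to 0.17.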

Other observations

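*Fgf21*, which encodes a hormone induced by PPARα in liver, was low in all islets. It stood at 0.320, 0.512 and 0.313 CPM in HFD-fed wildtype mice and at 1.65, 0.629 and 1.02 CPM in HFD-fed *Pax4* R192H mice, without overlap (log2 fold change 1.53, edgeR adjusted p = 0.196), and the log2 fold change was 0.51 with the acinar list as a covariate. On SCD the values were 1.25, 0.671 and 0.579 CPM in wildtype and 0.305, 0.237 and 0.802 CPM in *Pax4* R192H mice, which overlapped. In the second table *Fgf21* stood at 1.00 and 0.0663 CPM in control and at 0.589, 0.212 and 0.399 CPM in *Pax4* βiKO mice. The gene was picked for mention after its values were seen.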
